A study of Caenorhabditis elegans with 12 samples.

Results

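The wild-type libraries of a *Caenorhabditis elegans* RNA-seq series were described on their own. They made up 6 of the 12 libraries, and were chosen by their strain label alone, with no measured value. The other 6 came from *atfs-1* mutants grown beside them, 3 carrying *atfs-1(null)* and 3 carrying *atfs-1(et18)*, and were not compared here. Each mutant had wild-type worms of its own experiment as its control, so the same strain was sequenced in 2 experiments. Experiment 1 gave 3 N2 libraries and experiment 2, marked as the second batch in the labels, gave another 3. In both experiments the worms were N2, the reference laboratory strain, of wild-type genotype and with no treatment named, and collected as whole animals at the L4 stage, the last larval stage. Per the labels they grew on the bacterium *Escherichia coli* OP50 at 20 °C, while the methods of the study name the HT115 strain for worms used for RNA isolation, and which food these animals had was not settled. Total RNA was extracted with chloroform and ethanol, indexed with TruSeq adapters and sequenced as single reads. The labels give the second batch no further description, so strain apart, whatever differed between the batches cannot be told apart.

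L4 is a stage of fast change. In the epidermis the last larval cuticle is replaced by the adult cuticle, for which collagen and other matrix genes switch on and off in a fixed order within each molt cycle. In the hermaphrodite gonad, germ cells first become sperm and then switch to oocytes, and the intestine begins to make yolk proteins, the vitellogenins, as the worm becomes an adult. Genes of these programmes are therefore known to vary with time within the stage.

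The 6 libraries held 27600331 to 37050803 counted reads, and protein-coding genes took between 98.7% and 99.0% of them. Ribosomal RNA genes took 0.286% to 0.503%. Of 46739 annotated genes, 22499 had no read in any wild-type library and 15540 had enough reads to be tested. Libraries of 1 experiment differed by a median of 0.139 to 0.252 on the log2 scale over the tested genes, and libraries of different experiments by 0.270 to 0.491. All 9 pairs across the experiments were thus farther apart than all 6 pairs within one, and no replicate pair agreed within sampling noise. Replicate 3 of experiment 1 was the farthest from the others, at 0.188 and 0.252 from its own replicates. Genes that the early embryo switches on were at or near background, with *pes-10* at 0 in all 6 libraries and *end-1*, *end-3* and *med-1* at no more than 0.310 CPM, the counts of a gene scaled to a fixed library size. *atfs-1* itself stood at 45.3, 39.6 and 48.0 CPM in replicates 1 to 3 of experiment 1 and at 70.7, 58.4 and 59.4 CPM in experiment 2.

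Abundance was compared between genes as RPKM, which divides CPM by the kilobases of exon, and a family was given by its share of all RPKM in a library. Cytosolic ribosomal proteins, the protein part of the ribosome, were by far the most abundant of 45 families. Their 82 genes held 25.2% ± 0.653 (SD, n = 3) of all RPKM in experiment 1 and 25.03% ± 0.463 (SD, n = 3) in experiment 2. The *col-* cuticle collagens held 1.63% ± 0.0559 in experiment 1, below the genes of mitochondrial DNA and of muscle filaments, and 3.41% ± 0.292 in experiment 2, above both. The 12 protein genes of mitochondrial DNA held 2.27% ± 0.167 and 1.86% ± 0.0443. Muscle filament genes held 1.82% ± 0.0226 and 1.95% ± 0.080, and body-shape collagens, named for the dumpy, roller and blister shapes of their mutants, held 0.843% ± 0.201 and 1.42% ± 0.200. The subunits of the vacuolar ATPase, the proton pump of lysosomes and intestinal membranes, held 1.06% ± 0.0467 and 0.824% ± 0.0269.

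At the other end stood families with a small share of RPKM. Chemoreceptors had 1271 members, of which 291 had no read in any library and only 82 could be tested, and together they held 0.0228% ± 0.00245 of RPKM in experiment 1 and 0.0238% ± 0.00069 in experiment 2. Insulin-like peptides held 0.0139% ± 0.00109 and 0.0193% ± 0.00195. Ribosomal proteins were the most abundant and insulin-like peptides the least abundant family in both experiments, while the order just below the top changed. The sperm, oocyte and yolk families in between spread over a wide range of shares between libraries of the same strain.

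**Figure D1:**
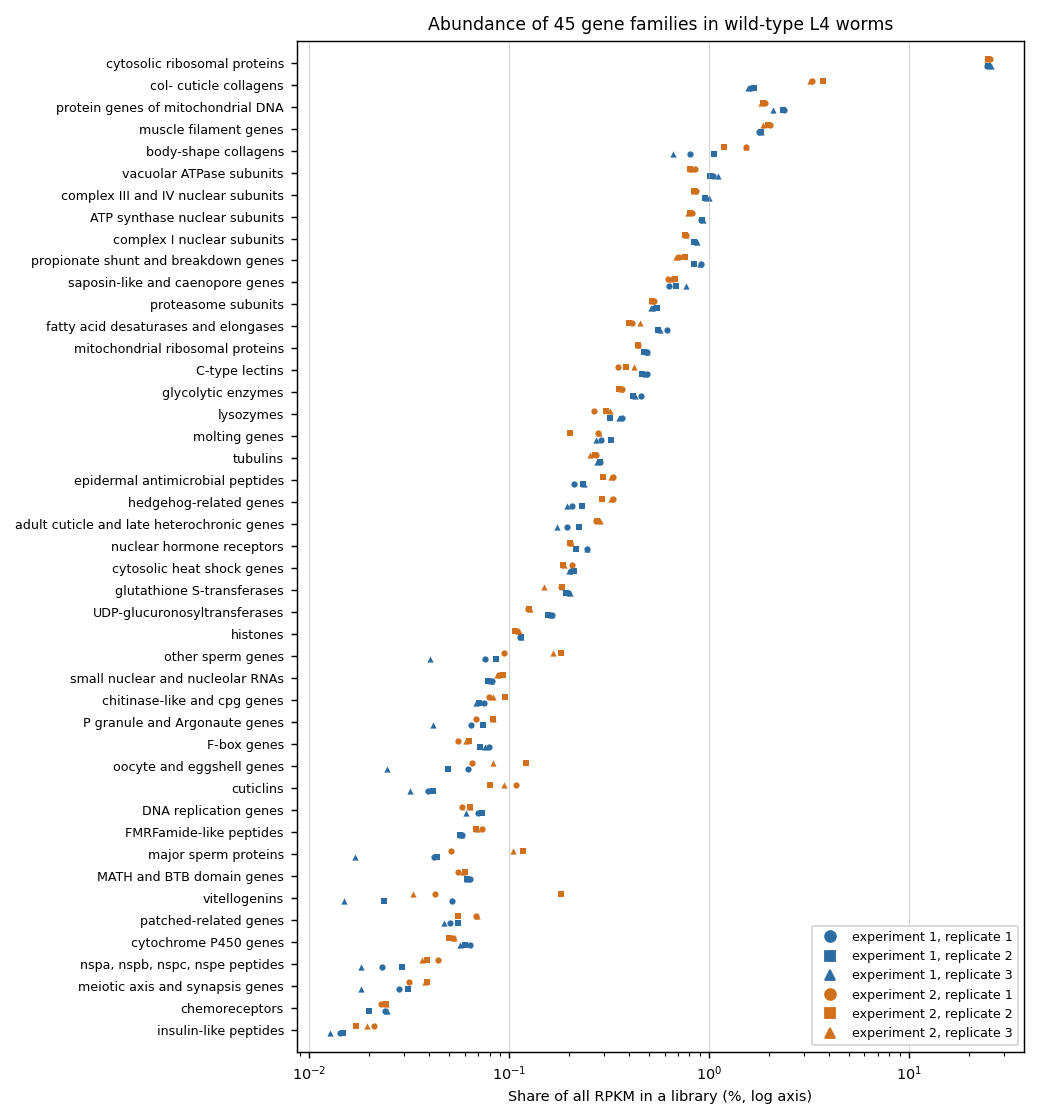
Share of all RPKM held by each of 45 gene families (log axis, percent) in the 6 wild-type libraries, with experiment 1 in blue, experiment 2 in orange and 1 symbol for each replicate. Ribosomal proteins sit near 25% in every library, whereas the *col-* collagens lie higher in all 3 libraries of experiment 2 and the vitellogenins spread widely within both experiments.

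The 10 genes with the highest mean RPKM were mostly ribosomal. *eef-1A.1*, which encodes the elongation factor that brings aminoacyl-tRNA to the ribosome (chromosome III, 6970026 to 6972003, WBcel235), came first at 6370 ± 332 RPKM in experiment 1 and 5740 ± 210 in experiment 2. *rpl-41.2*, for a small protein of the large ribosomal subunit, was second at 5219 and 5745 RPKM. *asp-1*, for an intestinal aspartyl protease, came next, at 5623 and 3846 RPKM. The list went on with *rps-25*, *rps-23*, *rla-0*, *COX1*, *rps-8*, *rpl-36.A* and *Y82E9BR.3*, of which *COX1* encodes the first subunit of cytochrome c oxidase and *Y82E9BR.3* the c subunit of ATP synthase. Between the experiments *asp-1* differed most among these 10, with 7516, 7073 and 8603 CPM in experiment 1 against 4925, 5444 and 5495 CPM in experiment 2. It was lower in experiment 2 by a log2 fold change of -0.55 (SE 0.09, edgeR adjusted p = 0.0067). *rla-0*, *COX1* and *Y82E9BR.3* were also called lower, at -0.19, -0.23 and -0.37, and each of these 3 calls ended when 1 library was left out, for at least 3 of the 6 libraries.

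The question of which families differed between wild-type cultures was put to all 15540 tested genes with the quasi-likelihood test of edgeR, as experiment 2 over experiment 1 and with Benjamini-Hochberg adjustment over all of them. At an adjusted p under 0.05, 3133 genes were higher and 3293 lower in experiment 2, together 41.4% of the genes tested. The background against which a family's counts were read was therefore 20.2% called higher and 21.2% called lower. More than 2-fold changes were less common, with 1713 genes higher and 472 lower. For 57.5% of the tested genes the CPM of the experiments did not overlap. The median log2 fold change of all tested genes was 0.01. Scaling by library size alone, in place of the TMM factors, moved that median to 0.16 and the calls to 4413 higher and 1964 lower, so small differences of a whole family depended on the scaling. Shorter genes stood slightly higher in experiment 2, with a median of 0.23 over 1351 genes under 500 bases and -0.03 over 672 genes in the longest length class. The supplement of the study calls the experiments behind its mutant comparisons biologically independent, the labels do not say whether replicates were separate cultures, and the p-values measure only the spread between these libraries.

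**Figure D2:**
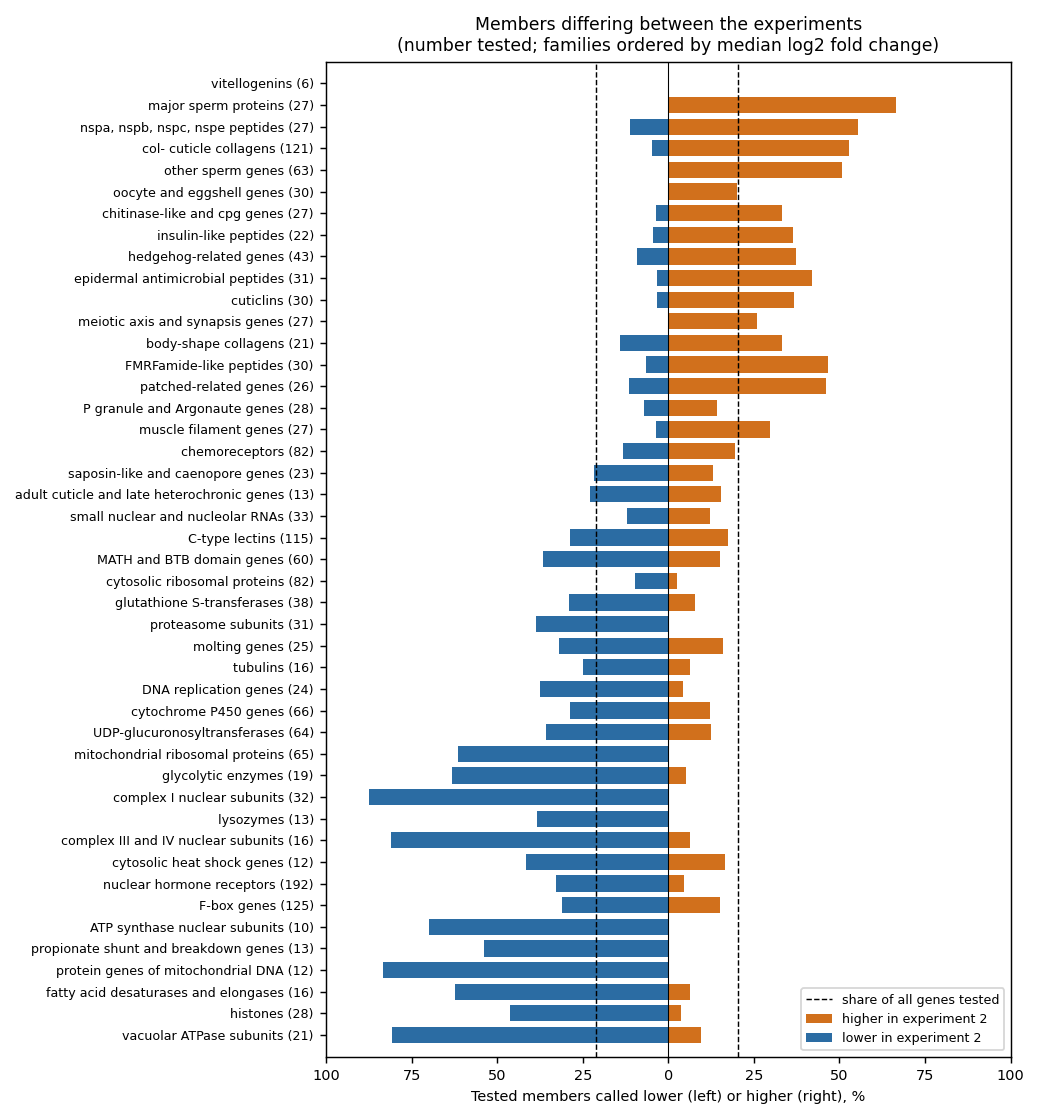
Share of the tested members of each family called higher (right, orange) or lower (left, blue) in experiment 2 at an adjusted p under 0.05, with families ordered by median log2 fold change, the number tested in brackets and dashed lines at the 20.2% and 21.2% of all genes. Sperm, collagen and other matrix families extend past the right line, and subunits of the respiratory chain and the vacuolar ATPase extend past the left one.

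Vitellogenins carry lipid into the oocyte and are made by the adult intestine. Their 6 genes had the largest family median of all, a log2 fold change of 1.65, and yet none of the 6 was called (0% against 41.4% of all genes), since replicates of both experiments spread widely and the groups overlapped for every gene. Summed over the family, experiment 1 gave 2141, 992 and 680 CPM and experiment 2 gave 1700, 7177 and 1281 CPM. Replicate 2 of experiment 2 alone stood above all others, and it was the highest for 6 of 6 genes, while replicate 1 was the highest for 6 of 6 within experiment 1.

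*vit-6*, the most abundant of them (chromosome IV, 8261145 to 8266463), read 1216, 565 and 409 CPM in experiment 1 and 990, 3836 and 736 CPM in experiment 2. *vit-2* (chromosome X, 5101032 to 5106173) read 570, 239 and 155 CPM and then 443, 2090 and 358 CPM. *vit-5*, with the largest spread in the family, read 130, 39.1 and 20.2 CPM and then 103, 624 and 70.6 CPM. All of them put the same library on top. *vit-3* came nearest to the threshold at 1.77 (SE 0.70, edgeR adjusted p = 0.0804), and *vit-1* was the farthest from it at 0.32 (SE 0.61, edgeR adjusted p = 0.691). Without replicate 2 of experiment 2 the family median fell to 0.39, and without any other single library it stayed between 1.29 and 2.31.

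The adult cuticle collagens *col-19*, *col-7* and *col-62*, which the epidermis switches on with the adult cuticle, split the replicates in the same order as yolk. *col-19* (chromosome X, 421707 to 422776) read 52.5, 15.2 and 5.49 CPM in experiment 1 and 92.1, 331 and 77.4 CPM in experiment 2. Its groups did not overlap, and it was higher in experiment 2 by 2.76 (SE 0.91, edgeR adjusted p = 0.0469), a call that ended without any one of 5 of the 6 libraries. *col-62* read 1.48, 0.502 and 0.101 CPM against 2.09, 9.70 and 1.55 CPM and was not called (2.62, SE 0.97, edgeR adjusted p = 0.0658). *col-7* read 1.48, 0.502 and 0.0674 CPM against 1.89, 9.67 and 1.33 CPM and was not called either (2.59, SE 1.04, edgeR adjusted p = 0.0809). In these 3 genes as in the vitellogenins, replicate 1 was the highest library of experiment 1 and replicate 2 the highest of experiment 2. Not every gene of the adult cuticle did this. *bli-1* and *bli-2*, the collagens of the struts that join the layers of the adult cuticle, were highest in replicate 2 of experiment 1 and lowest in replicate 2 of experiment 2, and neither was called (-0.19 and -0.04).

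Among timing genes of the heterochronic pathway, which sets the order of larval fates, *hbl-1*, *lin-14* and *mab-10* divided the experiments more tightly. *hbl-1*, a zinc finger factor that keeps earlier larval fates (chromosome X, 5822277 to 5827691), read 38.9, 35.5 and 41.1 CPM in experiment 1 and 18.7, 15.9 and 16.01 CPM in experiment 2. It was lower by 1.19 on the log2 scale (SE 0.10, edgeR adjusted p = 0.0010). *lin-14*, a nuclear factor of early larval fates (chromosome X, 11468500 to 11484267), read 52.5, 44.0 and 49.6 CPM and then 34.8, 32.4 and 30.8 CPM, lower by 0.57 (SE 0.09, edgeR adjusted p = 0.0044). *mab-10*, a cofactor of LIN-29, read 87.1, 99.1 and 89.4 CPM and then 47.0, 36.6 and 52.0 CPM, lower by 1.02 (SE 0.13, edgeR adjusted p = 0.00296). The groups of all 3 genes stood clear of each other, as did those of 57.5% of all tested genes. All 3 calls held when each library was left out in turn. *rol-1*, a cuticle collagen listed with them, went the other way, from 270, 379 and 181 CPM to 883, 897 and 957 CPM, higher by 1.72 (SE 0.24, edgeR adjusted p = 0.00393).

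The other timing genes, *lin-28*, *lin-29*, *lep-5* and *lin-46*, overlapped between the experiments. *lin-28*, an RNA-binding protein of early larval timing, was level at 22.8, 25.7 and 23.4 CPM against 23.3, 25.4 and 23.6 CPM. *lin-29*, the zinc finger factor of the switch to adult epidermis, read 32.1, 33.99 and 32.3 CPM against 32.5, 24.3 and 30.9 CPM, lowest in replicate 2 of experiment 2. *lep-5*, a long noncoding RNA, was the most abundant per length at 711 and 699 RPKM. Of the 13 genes measured, 2 were called higher and 3 lower (15.4% and 23.1%, against 20.2% and 21.2% of all genes). Their median of -0.04 changed sign with library-size scaling.

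**Figure D3:**
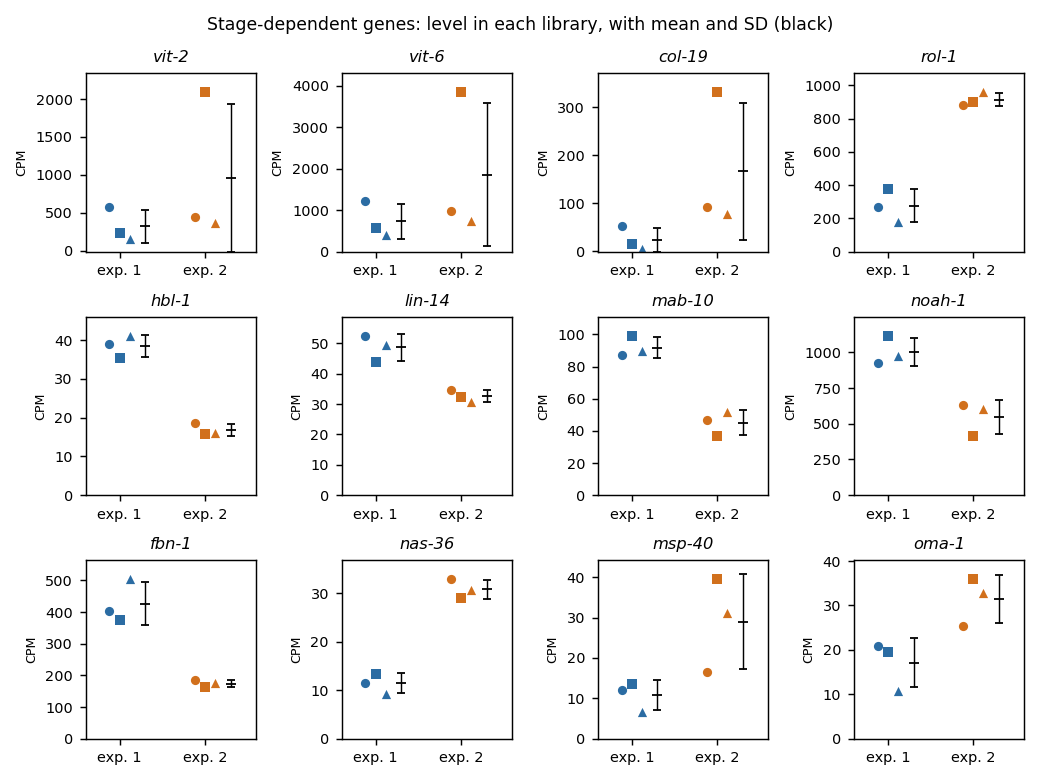
Level in CPM of 12 stage-dependent genes in each of the 3 libraries of experiment 1 (blue) and experiment 2 (orange), with the mean and SD in black and the symbols standing for replicates 1 (circle), 2 (square) and 3 (triangle). *vit-2*, *vit-6* and *col-19* are far highest in 1 library of experiment 2, at 2090, 3836 and 331 CPM. The groups overlap for *vit-2* and *vit-6*. They do not overlap for *col-19*, *rol-1*, *hbl-1*, *lin-14*, *mab-10*, *noah-1*, *fbn-1*, *nas-36* and *msp-40*.

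Major sperm proteins drive the crawling of nematode sperm and are made only while sperm form. Of 31 genes 27 could be tested, and 18 of them were called higher in experiment 2 and none lower (66.7%, against 20.2% of all genes), with a median log2 fold change of 1.36 and all 27 values above 0. Summed over the family, experiment 1 gave 153, 159 and 67.2 CPM and experiment 2 gave 177, 411 and 353 CPM. Replicate 1 of experiment 2 lay near replicates 1 and 2 of experiment 1, and it was the lowest of its experiment for 27 of 27 genes, as was replicate 3 in experiment 1. In whole worms, more sperm cells and more RNA in each cannot be told apart. The copies of this family are nearly identical and the handling of reads that match several of them is not stated in the sources used here, so single members are uncertain.

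The most abundant was *msp-40* (chromosome II, 4825380 to 4825845), with 12.1, 13.7 and 6.67 CPM in experiment 1 and 16.4, 39.4 and 31.2 CPM in experiment 2. It was higher by 1.42 (SE 0.37, edgeR adjusted p = 0.0251). The largest changes among its relatives were those of *msp-63* at 1.88, *msp-51* at 1.77 and *msp-65* at 1.73. These calls depended on which libraries were used. With 1 library left out the family had between 0 and 26 calls, with 5, 7 and 1 without replicates 1, 2 and 3 of experiment 1, 26 without replicate 1 of experiment 2 and 0 without its replicate 2 or 3. No member was called when all 12 libraries shared the fit, while the median stayed between 1.05 and 1.65 with each library left out. With the length trend removed 14 were called higher and the median was 1.17.

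The other sperm genes gave the same order of libraries. They included the small *nspd* peptides, sperm-specific phosphatases and the *spe* genes needed to make working sperm. Of 63 tested members 32 were higher (50.8%, against 20.2% of all genes) and 0 lower, with a median of 1.01 and 61 values above 0. Their sum was 572, 663 and 358 CPM in experiment 1 and 689, 1213 and 1111 CPM in experiment 2. *nspd-1*, the most abundant, read 14.1, 17.6 and 8.05 CPM against 20.1, 42.7 and 35.5 CPM, higher by 1.30 (SE 0.35, edgeR adjusted p = 0.0273). *nspd-3* was higher by 1.58, *spe-43* by 1.44 and *ssp-34* by 1.37. Among sperm markers, *gsp-3* and *gsp-4*, phosphatases of spermatogenesis, were both higher by 1.11, *smz-1*, a sperm PDZ protein, by 1.18, and *smz-2* was not called at 1.08 (SE 0.37, edgeR adjusted p = 0.0517). Calls in this family fell to 4 or fewer without replicate 1 or 3 of experiment 1 or without replicate 2 or 3 of experiment 2, and were 38 and 43 without the other 2 libraries. With all 12 libraries in the fit, 0 were called. The 4 sperm markers together ran from 31.6 to 70.9 CPM in experiment 1 and from 76.3 to 143 CPM in experiment 2, and their part in the family result was not tested.

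A further set of small nematode-specific peptides, *nspa*, *nspb*, *nspc* and *nspe*, had 15 members higher and 3 lower of 27 tested, with a median of 1.32. It was not of one kind. The *nspb* gene *nspb-9* rose from 0.378, 0.287 and 0.472 CPM to 1.73, 2.26 and 1.07 CPM, higher by 2.14 (SE 0.35, edgeR adjusted p = 0.00599), and *nspa-5* was higher by 1.85. *nspe-7* went from 6.25, 9.12 and 11.4 CPM to 3.10, 2.64 and 1.01 CPM, lower by 1.98 (SE 0.42, edgeR adjusted p = 0.0125). *nspe-1*, the most abundant of the set, read 14.5, 15.1 and 17.3 CPM and then 10.01, 10.2 and 8.43 CPM, lower by 0.71 (SE 0.12, edgeR adjusted p = 0.00676). All 3 lower members were *nspe* genes. The calls of higher members numbered 7 without replicate 1 of experiment 1 and 9 without its replicate 3 or without replicate 1 or 3 of experiment 2. *nspc-13* had the widest spread between replicates of the members above the abundance limit for naming, at 1.22, 1.29 and 0.337 CPM in experiment 1.

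Oocyte and eggshell genes mostly stood higher in experiment 2 and also spread between replicates, with a median SD of 0.56 on the log2 scale. Of 30 tested, 6 were higher and 0 lower, or 20.0%, close to the 20.2% of all genes, although 29 of 30 values were above 0 and their median was 0.80. The sum was 1164, 970 and 578 CPM in experiment 1 and 1162, 1934 and 1396 CPM in experiment 2, so the groups overlapped. Replicate 2 of experiment 2 was the highest of its experiment for 29 of 30 genes and replicate 3 of experiment 1 the lowest of its own for 29 of 30. *perm-4*, which builds the permeability barrier of the eggshell, read 35.3, 19.9 and 6.90 CPM and then 53.6, 133 and 64.0 CPM, higher by 2.01 (SE 0.59, edgeR adjusted p = 0.0349). *pie-1*, a repressor of transcription in germline precursors, was higher by 1.01, and *oma-1*, needed for oocyte maturation, by 0.87. *gld-1*, a translational repressor and the most abundant of the list, was not called at 0.67 (SE 0.26, edgeR adjusted p = 0.0771), nor were the yolk receptor *rme-2* at 0.75, the eggshell gene *cbd-1* at 0.67 and *puf-5* at 0.69. Without replicate 2 or replicate 3 of experiment 2, 1 gene of the list was called.

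P granule and meiotic genes were called less often, counting both directions, than the 41.4% of all genes. Of 28 P granule and Argonaute genes, which act in germline RNA silencing, 4 were higher and 2 lower. These were 14.3% and 7.1%, against 20.2% and 21.2% of all genes. The germline markers *glh-1*, *pgl-1* and *gld-1* were not called. *meg-3*, a P granule protein of the embryo, was the largest change, from 3.00, 2.48 and 2.12 CPM to 0.465, 1.01 and 0.537 CPM, lower by 1.94 (SE 0.32, edgeR adjusted p = 0.00618). Meiotic axis and synapsis genes had 7 higher (25.9%, against 20.2% of all genes) and 0 lower of 27. All 27 values were above 0, with a median of 0.45. The most abundant, *him-3*, was not called at 0.32, and the largest called change was *zhp-1* at 0.88 (SE 0.23, edgeR adjusted p = 0.0234). With 1 library left out the number of meiotic calls ran from 0, without replicate 2 or 3 of experiment 2, to 9. Replicate 3 of experiment 1 was the lowest library of its experiment for 27 of 27 meiotic genes and 27 of 28 P granule genes.

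DNA replication genes had 9 lower and 1 higher of 24 tested (37.5% and 4.2%, against 21.2% and 20.2% of all genes). Counting both directions 41.7% were called, near the 41.4% of all genes. Their median was -0.21. With library-size scaling 3 were lower and 2 higher, and with all 12 libraries in the fit 1 was lower. *rnr-1*, the large subunit of ribonucleotide reductase, read 177, 192 and 169 CPM in experiment 1 and 111, 116 and 115 CPM in experiment 2. It was lower by 0.66 (SE 0.06, edgeR adjusted p = 0.00151). *pcn-1*, the sliding clamp of DNA polymerase, was lower by 0.42. These genes were steady within an experiment, with a median SD of 0.09 on the log2 scale. Histones had 13 lower and 1 higher of 28 tested (46.4% and 3.6%), with a median of -0.46, and 31 of their 72 genes had no read. *his-35*, the most abundant, was not called at -0.27, and *his-4* was lower by 1.27. As for the major sperm proteins, the handling of reads that match several copies is not stated. Single histone genes, those without a read included, are therefore uncertain. Without replicate 3 of experiment 2 the lower calls numbered 4 for replication genes and 5 for histones.

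**Figure D4:**
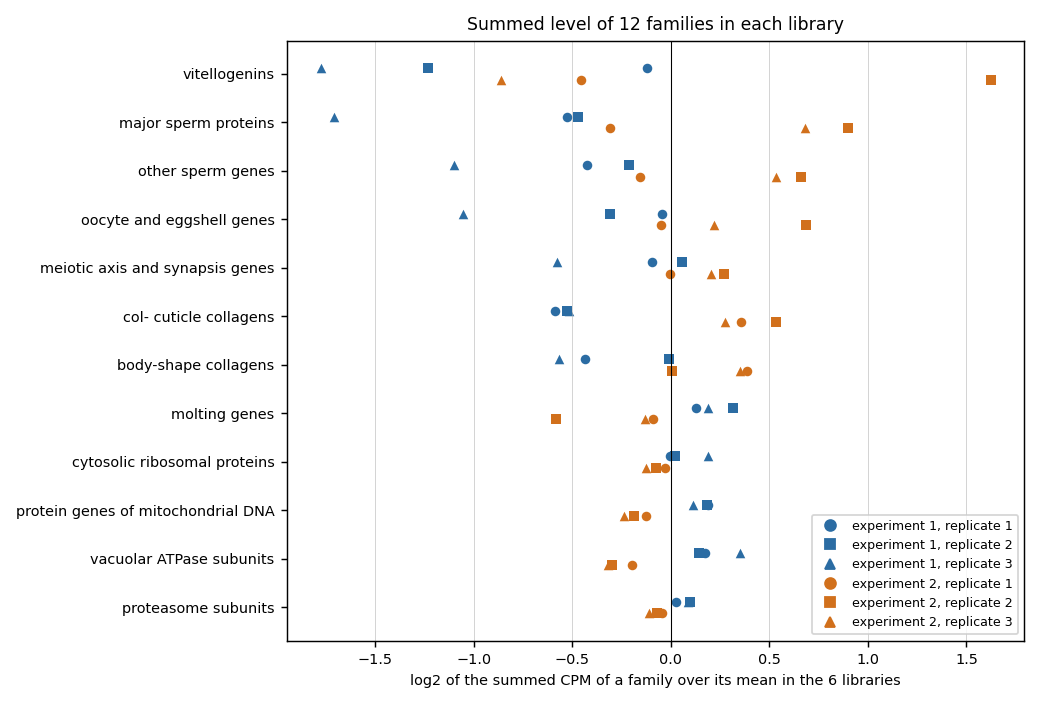
Summed CPM of 12 families in each wild-type library, as log2 over the mean of the 6 libraries, with experiment 1 in blue and experiment 2 in orange. Replicate 2 of experiment 2 stands apart for vitellogenins (7177 CPM) and is the lowest for molting genes (4489 CPM), replicate 3 of experiment 1 is the lowest for the sperm, oocyte and meiotic families, and ribosomal and proteasome genes lie close together.

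The *col-* cuticle collagens, small collagens secreted under the epidermis to build each cuticle, had the largest difference between the experiments in share of all RPKM. Of 156 genes 121 were tested, and 64 were higher and 6 lower in experiment 2 (52.9% and 5.0%, against 20.2% and 21.2% of all genes), with a median of 1.18. The sum was 13768, 14321 and 14467 CPM in experiment 1 and 26459, 29948 and 24955 CPM in experiment 2, with no overlap. This count was also steady, between 60 and 67 higher with each library left out and 59 with all 12 libraries in the fit. *col-73* had the highest RPKM, 735 in experiment 1 and 1448 in experiment 2, and read 691, 916 and 549 CPM and then 1475, 1325 and 1449 CPM, higher by 0.98 (SE 0.18, edgeR adjusted p = 0.00764).

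The largest changes were far greater. *col-137* (chromosome IV, 16601485 to 16602776) read 4.54, 0.969 and 1.41 CPM in experiment 1 and 26.6, 77.3 and 23.1 CPM in experiment 2, higher by 4.16 (SE 0.71, edgeR adjusted p = 0.00666). *col-88* (chromosome III, 41061 to 42018) read 35.7, 28.4 and 14.3 CPM and then 203, 379 and 172 CPM, higher by 3.26 (SE 0.43, edgeR adjusted p = 0.00316). *col-152* was higher by 3.05 (SE 0.52, edgeR adjusted p = 0.00653). All 3 calls held with each library left out, and all 3 genes were highest in replicate 2 of experiment 2. The 6 lower members, named after their values were seen, were *col-149* at -1.11, *col-43* at -0.89, *col-98* at -0.78, *col-153* at -0.74, *col-103* at -0.61 and *col-42* at -0.58. *col-42*, *col-98*, *col-149* and *col-103* were abundant genes, with mean RPKM of 398, 369, 366 and 348 over the 6 libraries. The calls of *col-149*, *col-98* and *col-153* held with each library left out, while those of *col-42* and *col-103* ended without any one of 4 libraries and that of *col-43* without any one of 5.

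Body-shape collagens were higher more often than lower. Of 21 tested, 7 were higher and 3 lower (33.3% and 14.3%, against 20.2% and 21.2% of all genes), with a median of 0.39. The sum was 7438, 9985 and 6775 CPM in experiment 1 against 13134, 10094 and 12828 CPM in experiment 2. *dpy-5*, the most abundant, read 639, 852 and 543 CPM and then 1673, 1368 and 1530 CPM, higher by 1.17 (SE 0.17, edgeR adjusted p = 0.00409). The epidermal marker *dpy-7* read 228, 283 and 252 CPM and then 197, 116 and 185 CPM, lower by 0.61 (SE 0.20, edgeR adjusted p = 0.0438), a call that ended without 4 of the 6 libraries taken one at a time. The other 2 lower members, *dpy-9* at -0.65 and *dpy-10* at -0.69, and the higher members *dpy-17* at 1.45, *dpy-13* at 1.124, *dpy-4* at 1.096, *bli-6* at 1.05 and *sqt-1* at 0.50 were named after their values were seen. *rol-1*, given above, was the remaining higher one. No member was called lower with library-size scaling, with all 12 libraries in the fit or without replicate 1, 2 or 3 of experiment 1 or replicate 3 of experiment 2, and the call of *sqt-1* also ended without any one of 4 libraries. The epidermal markers stood lower in experiment 2. *elt-3* and *lin-26*, transcription factors of the epidermis, were lower by 0.59 and 0.61 together with *dpy-7*, and the sum of these 3 ran from 340 to 387 CPM in experiment 1 and from 183 to 265 CPM in experiment 2. Their part in the collagen result was not tested.

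Other cuticle families also stood higher in experiment 2. Cuticlins, cross-linked non-collagen proteins of the cuticle, had 11 higher and 1 lower of 30 tested, with a median of 0.46. These were 36.7% and 3.3%, against 20.2% and 21.2% of all genes. *cut-2*, the most abundant, read 188, 200 and 154 CPM and then 624, 445 and 509 CPM, higher by 1.54 (SE 0.15, edgeR adjusted p = 0.00146), and *cutl-5* was higher by 2.44. Hedgehog-related genes, secreted proteins of the worm epidermis, had 16 higher and 4 lower of 43 (37.2% and 9.3%) and a median of 0.60. *grl-16* was the most abundant of them at 206, 221 and 151 CPM against 753, 784 and 663 CPM, higher by 1.93 (SE 0.15, edgeR adjusted p = 0.000983). *grl-22* rose from 0.669, 0.790 and 0.472 CPM to 5.48, 5.29 and 3.98 CPM, higher by 2.93. Patched-related genes, their membrane relatives, had 12 higher and 3 lower of 26 (46.2% and 11.5%), led by *ptr-17* at 1.72. The most abundant, *ptr-4*, was not called at -0.02.

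Chitinase-like and chondroitin proteoglycan genes had 9 higher and 1 lower of 27 tested (33.3% and 3.7%, against 20.2% and 21.2% of all genes). Their median was 0.80. *cpg-19* read 3.05, 4.85 and 1.58 CPM and then 15.7, 12.7 and 18.9 CPM, higher by 2.32 (SE 0.37, edgeR adjusted p = 0.0055). *cpg-22* was higher by 2.01 and the chitinase *cht-2* by 1.60, and *cpg-9*, the most abundant, was not called at -0.15. Epidermal antimicrobial peptides, secreted by the epidermis on infection or wounding, had 13 higher and 1 lower of 31 (41.9% and 3.2%), with a median of 0.58. With the length trend removed they had 9 higher and 3 lower and a median of 0.33. Their largest named change was *nlp-25*, from 2.33, 0.826 and 1.11 CPM to 16.2, 28.1 and 12.2 CPM, higher by 3.70 (SE 0.47, edgeR adjusted p = 0.00286). *fipr-21*, the most abundant at 734 and 698 RPKM, was not called. Without replicate 1 of experiment 1 the higher calls were 7 cuticlins, 9 hedgehog-related genes, 10 patched-related genes and 5 chitinase-like or proteoglycan genes.

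Genes that act in molting, from secreted proteases and matrix proteins to the factors that time the cycle, divided in both directions. Of 25 tested, 4 were higher and 8 lower (16% and 32%, against 20.2% and 21.2% of all genes). Their median of -0.16 shrank to -0.01 with library-size scaling. The sum was 7333, 8364 and 7650 CPM in experiment 1 and 6300, 4489 and 6138 CPM in experiment 2. Replicate 2 of experiment 2, the library with the most yolk and *col-19* RNA, was the lowest of its experiment for 25 of 25 molting genes.

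Lower members included matrix proteins laid down before the new cuticle. *fbn-1*, a fibrillin-like matrix protein (chromosome III, 7625376 to 7641053), read 402, 375 and 503 CPM and then 185, 163 and 175 CPM, lower by 1.29 (SE 0.12, edgeR adjusted p = 0.0013). *noah-1*, a zona pellucida protein of the apical matrix (chromosome I, 5874433 to 5878954), read 922, 1115 and 974 CPM and then 633, 411 and 600 CPM, lower by 0.87 (SE 0.17, edgeR adjusted p = 0.00938). *mlt-11*, a protease inhibitor, and *let-653*, another zona pellucida protein, were both lower by 0.95, and *sym-1* was lower by 0.88, *myrf-1*, a membrane-bound transcription factor, by 0.67, *noah-2* by 0.63 and the dehydrogenase *let-767* by 0.60. Apart from *noah-2*, these calls held with each library left out.

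The 4 higher members were enzymes, an inhibitor and *mlt-8*. *nas-36*, an astacin protease that helps shed the old cuticle, read 11.6, 13.4 and 9.30 CPM and then 32.9, 28.97 and 30.6 CPM, higher by 1.43 (SE 0.14, edgeR adjusted p = 0.00145). *bli-5*, a protease inhibitor, was higher by 1.38 (SE 0.25, edgeR adjusted p = 0.00746). *bli-3*, the oxidase that cross-links the cuticle, was higher by 0.31 and *mlt-8* by 0.47, and both of these calls ended without any one of 4 libraries. The related protease *nas-37* was not called at -0.44, and *mlt-10*, which marks the molting epidermis, read 171, 263 and 131 CPM against 338, 229 and 411 CPM and was not called at 0.79 (SE 0.30, edgeR adjusted p = 0.0665). The timing factors *nhr-23*, *nhr-25*, *lin-42*, *blmp-1* and *grh-1* were not called, at -0.16, 0.22, -0.30, -0.25 and -0.31. Within experiment 1, replicate 2 was the highest library for 17 of 25 molting genes.

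**Figure D5:**
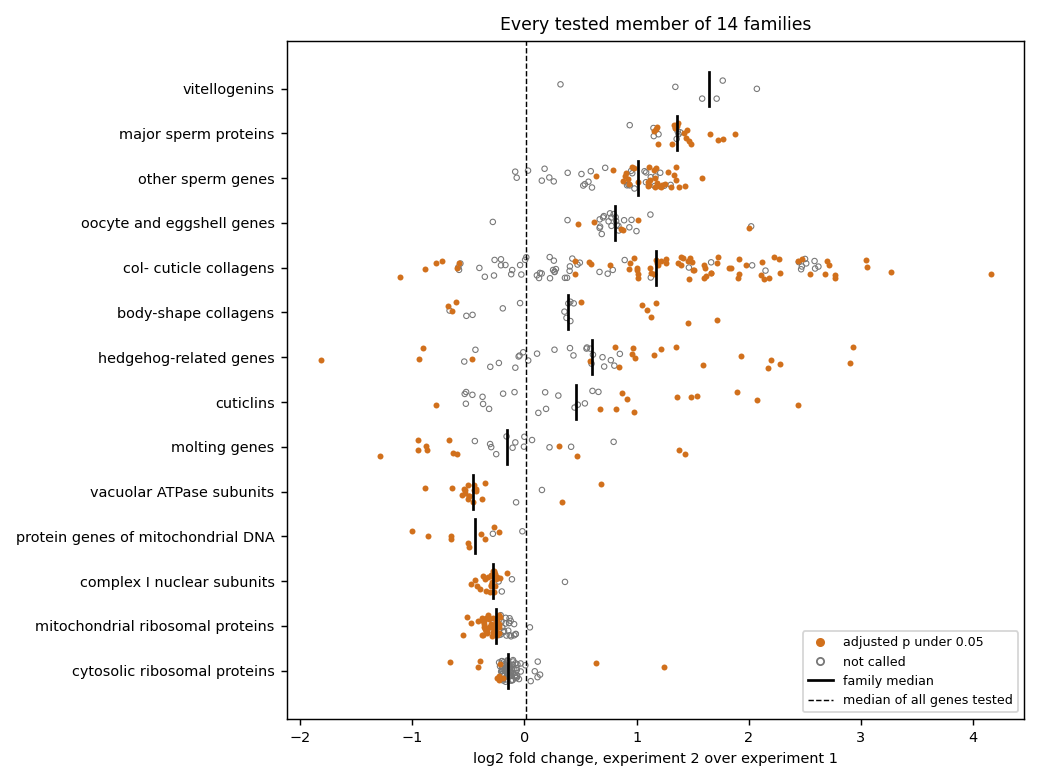
Log2 fold change, experiment 2 over experiment 1, of every tested member of 14 families, with called members filled in orange, the others open, the family median as a black bar and the median of all tested genes as a dashed line. Most sperm genes lie to the right and *col-* collagens run from -1.11 to 4.16. Most mitochondrial and vacuolar ATPase genes lie to the left, the vacuolar ATPase genes running from -0.89 to 0.68.

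Mitochondrial genes made a contrast to the stage-dependent families, with small differences and very little spread. The 12 protein genes of mitochondrial DNA, all of them subunits of the respiratory chain or ATP synthase, had 10 lower (83.3%, against 21.2% of all genes) and 0 higher. Their median was -0.44 and their sum was 19400, 19323 and 18368 CPM in experiment 1 against 15566, 14938 and 14409 CPM in experiment 2. *COX1* read 6458, 7006 and 6580 CPM and then 5975, 5666 and 5479 CPM, and *ND4L*, the largest change, read 21.7, 24.2 and 27.9 CPM and then 9.90, 14.4 and 12.6 CPM, lower by 1.00 (SE 0.16, edgeR adjusted p = 0.00536). Between 7 and 9 of the 12 were called lower with each library left out.

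The nuclear partners of these genes went the same way. Complex I subunits had 28 lower and 0 higher of 32 (87.5% lower, against 21.2% of all genes), with a median of -0.28. *nuo-1*, the most abundant, read 624, 628 and 690 CPM and then 527, 538 and 519 CPM, lower by 0.29 (SE 0.06, edgeR adjusted p = 0.0125), and *gas-1* was lower by 0.47. Subunits of complexes III and IV and cytochrome c had 13 lower and 1 higher of 16 (81.25% and 6.25%). Among them *cyc-2.1*, the more abundant cytochrome c, was lower by 0.36 and *cyc-2.2*, the other one, was higher by 1.11 (SE 0.32, edgeR adjusted p = 0.0333). *cyc-2.2* read 11.6, 14.9 and 6.64 CPM and then 16.3, 28.3 and 27.1 CPM, the order of libraries of the sperm genes. ATP synthase subunits had 7 lower (70%) and 0 higher of 10, with the catalytic subunits *atp-1* and *atp-2* lower by 0.38 and 0.31.

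These family differences were small, and the scaling moved their counts. With library-size scaling 11 complex I genes, 9 genes of complexes III and IV, 5 ATP synthase genes and 6 genes of mitochondrial DNA were called lower, and none of the 4 medians changed sign. Without replicate 3 of experiment 2 the lower calls were 10 in complex I, 5 in complexes III and IV and 2 in ATP synthase. Of 65 mitochondrial ribosomal proteins 40 were lower (61.5%, against 21.2% of all genes) and 0 higher, with a median of -0.26. With library-size scaling 14 were called lower, and 12 without replicate 3 of experiment 2. *mrps-14*, the most abundant, read 100, 85.2 and 101.2 CPM and then 74.0, 75.5 and 72.4 CPM, and *mrps-31* differed most, from 37.7, 38.5 and 38.8 CPM to 25.96, 25.98 and 26.6 CPM, lower by 0.55 (SE 0.06, edgeR adjusted p = 0.00164). Cytosolic ribosomal proteins had only 8 lower and 2 higher of 82 (9.8% and 2.4%, against 21.2% and 20.2% of all genes). These counts depended on the processing. With library-size scaling 2 were lower and 8 higher and the median of -0.15 became 0.0014, with the length trend removed 50 were lower and 2 higher and the median was -0.27, with DESeq2 16 were lower, and with each library left out 0 to 3 were lower. *rpl-42*, the largest called change, was a scarce copy at 2.13 and 5.06 RPKM, higher by 1.24.

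Vacuolar ATPase subunits had 17 lower and 2 higher of 21 (81.0% and 9.5%, against 21.2% and 20.2% of all genes), with a median of -0.46. Again 17 were called lower with library-size scaling, with all 12 libraries in the fit and without 5 of the 6 libraries in turn. The count was 15 without replicate 3 of experiment 2, 14 with the replicate number as a block and 1 with a fold threshold of 1.5. *vha-6*, the subunit that places the pump in the intestinal apical membrane (chromosome II, 11435211 to 11438464), read 845, 821 and 878 CPM and then 472, 467 and 434 CPM, lower by 0.89 (SE 0.06, edgeR adjusted p = 0.00086). *vha-2*, the most abundant, was lower by 0.43, and the 2 higher subunits, named after their values were seen, were *vha-18* at 0.68 and *vha-7* at 0.34, calls that ended without any one of 3 and 4 libraries. The 4 intestinal markers, which are *vha-6* itself, *elt-2*, *act-5* and *ges-1*, were all called lower. The vitellogenins, also made by the intestine, were not. *elt-2*, the GATA factor of the intestine, read 67.8, 61.8 and 74.9 CPM and then 34.9, 40.9 and 34.6 CPM, lower by 0.89 (SE 0.10, edgeR adjusted p = 0.00206). *act-5*, the actin of intestinal microvilli, read 3492, 3144 and 4139 CPM and then 1883, 2053 and 1687 CPM, lower by 0.94 (SE 0.12, edgeR adjusted p = 0.00307), and the esterase *ges-1* was lower by 0.21, a call lost without any one library. Summed over these 4 markers, *vha-6* included, experiment 1 ran from 4126 to 5198 CPM and experiment 2 from 2239 to 2651 CPM. Their part in the results on the vacuolar ATPase and on the metabolic families that follow was not tested.

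Fatty acid desaturases and elongases, which make polyunsaturated and branched fatty acids, had 10 lower and 1 higher of 16, with a median of -0.44. Those calls were 62.5% and 6.25%, against 21.2% and 20.2% of all genes. *elo-6* (chromosome IV, 5386627 to 5388559) read 1053, 845 and 903 CPM and then 429, 489 and 516 CPM, lower by 0.97 (SE 0.11, edgeR adjusted p = 0.00202). The only higher gene, *elo-8*, read 3.52, 3.70 and 1.75 CPM and then 4.73, 9.88 and 7.96 CPM, once more the order of the sperm genes. Genes of propionate breakdown had 7 lower (53.8%) and 0 higher of 13, with *ech-6*, an enoyl-CoA hydratase, lower by 0.72. *acdh-1*, the acyl-CoA dehydrogenase that opens the shunt, read 3852, 3521 and 4040 CPM against 2879, 3192 and 2779 CPM, lower by 0.37 (SE 0.08, edgeR adjusted p = 0.0164). Glycolytic enzymes had 12 lower and 1 higher of 19 (63.2% and 5.3%). The aldolase *aldo-2* read 1072, 981 and 1108 CPM and then 663, 638 and 653 CPM, lower by 0.69 (SE 0.07, edgeR adjusted p = 0.00133), and the hexokinase *hxk-1* was higher by 0.71. Without replicate 3 of experiment 2 there were 6 lower calls in glycolysis and 3 in propionate breakdown.

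Families of defence and detoxification mostly had calls in both directions. Summed RPKM in experiment 2 over experiment 1 was 0.743 for C-type lectins, 0.789 for lysozymes and 0.858 for saposin-like genes. Only the saposin-like sums overlapped between the experiments. C-type lectins, secreted sugar-binding proteins, had 20 higher and 33 lower of 115 tested (17.4% and 28.7%, against 20.2% and 21.2% of all genes). Their median of -0.08 changed sign with library-size scaling. *clec-63*, the most abundant, was lower by 0.54, while *clec-247* rose from 0.174, 0.754 and 0.168 CPM to 1.89, 3.30 and 3.51 CPM, higher by 3.01 (SE 0.56, edgeR adjusted p = 0.00866). Lysozymes, which break bacterial walls, had 5 lower (38.5%) and 0 higher of 13, led by *lys-5* at -1.42, with a median of -0.29. Of these, 2 or 3 were called lower without any one of 5 libraries. Saposin-like genes had 3 higher and 5 lower of 23, with a median of -0.02 whose sign also changed with the scaling. Their share of lower calls was near the 21.2% of all genes, and their share of higher calls was below the 20.2%. In this family *spp-19* was lower by 1.18 and *spp-5*, the most abundant at 2058 and 1729 RPKM, was not called.

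Cytochrome P450 genes, oxidases of fats and foreign compounds, had 8 higher and 19 lower of 66 (12.1% and 28.8%), with a median of -0.22. UDP-glucuronosyltransferases, which conjugate such compounds, had 8 higher and 23 lower of 64 (12.5% and 35.9%), with a median of -0.23. The shares of all genes were 20.2% and 21.2%. Summed RPKM in experiment 2 over experiment 1 was 0.789 and 0.720 for these families, without overlap. *cyp-13A12* read 15.97, 6.14 and 10.8 CPM and then 2.61, 2.09 and 1.77 CPM, lower by 2.34 (SE 0.36, edgeR adjusted p = 0.00498), whereas *cyp-35A2*, the most abundant, was not called at -0.12. *ugt-25* was higher by 1.74 and *ugt-62*, the most abundant, was lower by 0.72. Glutathione S-transferases had 3 higher and 11 lower of 38 (7.9% and 28.9%), led by *gst-38* at -1.88. Their summed RPKM ratio was 0.804, again without overlap. *gst-10*, the most abundant of these, read 196, 200 and 196 CPM and then 212, 219 and 118 CPM, so a single library stood low. Without replicate 3 of experiment 2 the lower calls were 11 for cytochrome P450 genes, 14 for UDP-glucuronosyltransferases and 7 for glutathione S-transferases.

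Nuclear hormone receptors, a large family of ligand-regulated transcription factors, had 9 higher and 63 lower of 192 tested (4.7% and 32.8%), with a median of -0.32, and 41 were lower with library-size scaling and 30 without replicate 1 of experiment 1. *nhr-114*, the most abundant, read 462, 411 and 546 CPM and then 331, 315 and 325 CPM, lower by 0.55 (SE 0.10, edgeR adjusted p = 0.00929), and *nhr-265* was lower by 2.46. F-box genes, which choose proteins for ubiquitin, had 19 higher and 39 lower of 125 (15.2% and 31.2%, against 20.2% and 21.2% of all genes). *fbxa-72*, the most abundant, was lower by 1.11 and *fbxa-42* was higher by 2.90, and without replicate 3 of experiment 2 the calls were 7 higher and 22 lower. MATH and BTB domain genes had 9 higher and 22 lower of 60 (15% and 36.7%), with *math-45* lower by 2.15 and *math-33* not called. The sign of their median, -0.10, changed with library-size scaling. Proteasome subunits had 12 lower (38.7%) and 0 higher of 31 with a median of only -0.16. Between 0 and 4 were called lower with each library left out.

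Families of signalling peptides leaned to the higher side. FMRFamide-like peptide genes had 14 higher and 2 lower of 30 (46.7% and 6.7%), with a median of 0.36. *flp-17* read 4.16, 4.63 and 2.66 CPM and then 10.9, 8.21 and 8.56 CPM, higher by 1.28 (SE 0.23, edgeR adjusted p = 0.00823), and *flp-28*, the most abundant, was higher by 0.29. Insulin-like peptides had 8 higher and 1 lower of 22 (36.4% and 4.5%, against 20.2% and 21.2% of all genes), with a median of 0.73. *ins-4* was higher by 1.47, *ins-37* by 1.26 and *ins-6*, which acts against dauer arrest, by 1.07, while *ins-27*, the most abundant, read 14.02, 13.1 and 13.3 CPM and then 10.1, 9.22 and 10.5 CPM, lower by 0.44 (SE 0.10, edgeR adjusted p = 0.0166). The higher insulin calls numbered 2 to 8 with each library left out and those of the FMRFamide-like genes 5 to 13, and both were at their lowest without replicate 1 of experiment 1, the insulin calls equally so without replicate 3 of either experiment. No general neuron marker was called higher. *rab-3*, *snb-1* and *unc-119* were not called, at 0.02, -0.15 and -0.23, and *egl-21*, a peptide-processing enzyme, was lower by 0.37.

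Chemoreceptors had 16 higher and 11 lower of the 82 that could be tested, near the background in one direction and below it in the other. *srr-4*, the most abundant, was not called at 0.01, and *str-180* was higher by 1.73. Muscle filament genes had 8 higher and 1 lower of 27 (29.6% and 3.7%) and a median of 0.16. With library-size scaling 17 were higher and the median was 0.30, and without replicate 1 of either experiment 4 were higher. The lower one was *act-5*, which is intestinal. The body wall muscle markers *unc-54*, *myo-3* and *unc-15* were not called, at 0.21, 0.17 and 0.18, while the pharyngeal myosin *myo-2* read 174, 230 and 149 CPM and then 397, 235.2 and 319 CPM, higher by 0.78 (SE 0.22, edgeR adjusted p = 0.0314), and *myo-5* was higher by 1.08. Tubulins had 1 higher and 4 lower of 16 (6.25% and 25%, against 20.2% and 21.2% of all genes). Of these *tbb-2*, the most abundant, was not called and *tba-7* was lower by 0.54. Cytosolic heat shock genes had 2 higher and 5 lower of 12 (16.7% and 41.7%). The inducible *hsp-70* read 1.98, 1.47 and 2.09 CPM and then 13.2, 7.03 and 6.60 CPM, higher by 2.28 (SE 0.32, edgeR adjusted p = 0.00386), and the constitutive *hsp-1* was lower by 0.24. Small nuclear and nucleolar RNAs had 4 higher and 4 lower of 33 (12.1% each way, below the shares of all genes). Their median of -0.06 changed sign with library-size scaling.

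Outside the families, the largest rises and falls included genes near background in 1 experiment. *abu-2* and *abu-4* read no more than 0.0359 and 0.431 CPM in experiment 1. *abu-2* had 2 reads over the 3 libraries of experiment 1 and 251 over those of experiment 2, at 2.64, 2.85 and 2.12 CPM, but shares 37.4% of its exon bases with other annotated genes. *R09E10.13* had 5 reads and then 309, and *Y5H2A.4* had 23 and then 614. Among the falls was *mtl-2*, a metallothionein that binds zinc and cadmium (chromosome V, 14018272 to 14018643). It read 361, 166 and 169 CPM in experiment 1 and 35.9, 36.9 and 15.5 CPM in experiment 2, lower by 2.98 (SE 0.44, edgeR adjusted p = 0.00439). The other metallothionein, *mtl-1*, read 3.81, 0.897 and 0.808 CPM and then 0.388, 0.174 and 0.126 CPM, lower by 2.95 (SE 0.78, edgeR adjusted p = 0.0257), a call lost without replicate 2 or replicate 3 of experiment 2. *K11H12.3*, *D1014.7* and the homeobox gene *ceh-83* completed the list at -2.84, -2.72 and -2.49. Other genes named by the rule with a call lost without at least 1 library were *zhp-1*, *perm-4*, *oma-1*, *pie-1*, *nspa-5*, *his-4*, *ptr-17*, *cht-2*, *rpl-42*, *mrps-14*, *nuo-1*, *atp-2*, *cyc-2.1*, *cyc-2.2*, *elo-8*, *acdh-1*, *hsp-1*, *ugt-62*, *ins-4*, *ins-37*, *ins-27*, *flp-28*, *egl-21*, *tba-7*, *myo-2* and *D1014.7*.

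Within an experiment, the spread between replicates differed between families. Over all tested genes the median SD of log2 CPM was 0.18. It was 1.14 for vitellogenins, 0.68 for major sperm proteins and 0.61 for the *nsp* peptides, the 3 widest families, and 0.56 for oocyte genes and 0.50 for the other sperm genes. The steadiest were proteasome subunits at 0.04, followed by complex I at 0.08, glycolytic enzymes at 0.08 and mitochondrial DNA genes at 0.08. All of these were abundant, with median RPKM of 136, 201, 108 and 661 against 9.48 over all tested genes. The part of abundance in their small spread was not tested. The 3 widest families were the same with library-size scaling and when only the more abundant genes were kept.

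The libraries set apart by these families were not the same for each. In experiment 1, replicate 3 was the lowest for all 27 major sperm proteins, 57 of 63 other sperm genes and 29 of 30 oocyte genes, and it was the highest for 79 of 82 cytosolic ribosomal proteins, 63 of 65 mitochondrial ribosomal proteins and 31 of 32 complex I genes. In experiment 2, replicate 1 was the lowest for all 27 major sperm proteins and 58 of 63 other sperm genes, and replicate 2 was the highest for all 6 vitellogenins and 29 of 30 oocyte genes and the lowest for all 25 molting genes. Members of a family share these libraries and are not independent replicates of them.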

How the data were processed

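The deposited table held raw counts of reads per gene, 1 column for each library. Per the labels the authors named STAR 2.5.3a and featureCounts of Subread 1.5.2 with build WBcel235. Annotation release, strand setting and the handling of multi-mapped reads are not given in the sources used here. Single members of families with similar copies, vitellogenins among them, are uncertain for that reason. Total counts ran from 27600331 to 37050803, which sets the counting error. No column was without a sample.

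Gene symbols were given to 43720 of 46739 genes by identifier. The 45 families were lists of symbols, biotypes or the mitochondrial chromosome, with 4099 member genes, of which 1818 were tested and 14 sat in more than 1 family. The families, the named genes and the tests were chosen with earlier results of these data known, and 3 family definitions were corrected after the table was opened. Wild-type counts were filtered with filterByExpr (minimum count 10, total 15), scaled by TMM and fitted with edgeR 4.0.16 (glmQLFit, glmQLFTest) with no covariate, in R 4.3.3. The SE of a log2 fold change is its size over the square root of F. CPM and RPKM were computed from the counts, the TMM-scaled library sizes and the exon lengths in the deposited table, with a prior count of 2 on the log2 scale only. No test was made of a family.

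Named genes were the 10 of highest RPKM, the 5 largest rises and falls (average log2 CPM of at least 0, no overlap), in 8 families by distance of the median and 3 by spread up to 3 most changed members and the most abundant one, all yolk, adult cuticle, timing, molting and marker genes, *atfs-1*, and in other families the most abundant and the most changed member. Same-numbered replicates of the experiments did not deviate together, so numbers did not pair libraries. Alternatives were DESeq2 1.42.0, other scalings and filters, robust estimation, all 12 libraries, a replicate block, a length offset, a fold threshold of 1.5 and leaving out each library. Code was tested on simulated data.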

Additional observations from a re-analysis of the deposited data

How the results depend on the processing

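Calls over all genes numbered 3133 higher and 3293 lower in experiment 2. They were 1279 and 1791 with all 12 libraries in the fit, 471 and 290 with a fold threshold of 1.5, and from 1265 to 3112 higher and from 1767 to 3246 lower with 1 library left out, lowest in both directions without replicate 3 of experiment 2. Library-size scaling gave 4413 and 1964. Same-numbered libraries of the experiments had correlations of deviations of -0.31, -0.05 and -0.19 and none correlated best with its own number, so the numbers paired nothing, and a fit with the replicate number as a block gave 1269 and 1627 calls. Of 122 called genes named by the rule, 72 were called with each library left out and 39 under every alternative. Vitellogenin medians ran from 0.39 to 2.31 with 1 library left out. The median changed sign with library-size scaling for cytosolic ribosomal proteins (0.0014), adult cuticle and timing genes (0.11), small nuclear and nucleolar RNAs (0.085), C-type lectins (0.069), saposin-like genes (0.14) and MATH and BTB genes (0.038), with the stricter filter for the small RNAs (0.13), without a filter for C-type lectins (0.063) and saposin-like genes (0.029), and with DESeq2 for the same families (0.025 and 0.10). With 1 library left out the medians ran from -0.11 to 0.051 for adult cuticle and timing genes, from -0.097 to 0.099 for the small RNAs, from -0.11 to 0.0070 for C-type lectins, from -0.14 to 0.14 for saposin-like genes and from -0.030 to 0.17 for chemoreceptors. The cause of these changes was not tested. Genes with no read in any wild-type library, 22499 in number, could not be tested at this depth.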
